A study of Homo sapiens with 10 samples.

Results

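The genes described here are 9 human genes of the thioredoxin, quinone and heme defence: TXN, TXNRD1, PRDX1, SRXN1, NQO1, HMOX1, OSGIN1, TRIM16 and TRIM16L. They were listed by name, out of 61533 genes in the count tables, and the genes were selected on these same measured values, the difference in counts between the lines described below. Their values in that comparison are therefore given as a description, with no p-value, and only genes outside the list are tested. The lists of other genes were also chosen with earlier results of these data known, so their counts and medians are a description as well.

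The data were RNA-seq libraries of total RNA from the human bladder cancer cell line T24, which is sensitive to cisplatin, and from T24R2, a cisplatin-resistant line that was derived from T24 by serial exposure to the drug. Each line had 5 replicate libraries from cells grown to day 3 in RPMI medium with fetal bovine serum and antibiotics. T24R2 is 1 line, and its stock was kept in medium with cisplatin, whereas the culture conditions given for the sequenced cells name no drug for either line, so the line and a drug exposure cannot be told apart. The replicates were not stated to be separate cultures, so all p-values measure the spread between these libraries only.

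Total counts ran from 9257843 to 10840954 per library, and 16181 genes passed the expression filter. Levels are given in CPM, counts scaled to the same library size after correction by the trimmed mean of M values (TMM), and a gene is called when its adjusted p is under 0.05 and its absolute log2 fold change is over 0.5. On this scale the median log2 fold change of all tested genes was 0.01, and it was 0.18 without TMM and 0.09 with upper-quartile scaling. Of the 18 urothelial and epithelial markers, 9 passed the filter and all 9 were called lower in T24R2. KRT7, KRT8 and KRT18 remained at 691 to 1370.0 CPM on average in T24R2, whereas KRT19 averaged 267 CPM in T24 and 0.0887 in T24R2, and KRT20, KRT5 and CDH1 were near 0 in both lines. Of 13 fibroblast, endothelial and leukocyte markers, 4 passed the filter and all 4 were called lower, and their summed level of 238 to 289 CPM in T24 was mostly CDH5 (239 CPM on average in T24, 0.559 in T24R2). In bulk RNA, fewer cells of a type and less RNA per cell cannot be told apart. The part of these markers in the results below was not tested.

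The 9 genes belong to a defence against oxidants and reactive chemicals. Thioredoxin (TXN) passes electrons to oxidised proteins and is itself reduced by thioredoxin reductase (TXNRD1), a selenoprotein that uses NADPH. Peroxiredoxins such as PRDX1 remove hydrogen peroxide with electrons from thioredoxin, and sulfiredoxin (SRXN1) restores peroxiredoxins that have been overoxidised. NQO1 reduces quinones in a single step that bypasses the reactive semiquinone, and HMOX1 opens the heme ring to give biliverdin, iron and carbon monoxide. Many of these genes are known targets of the transcription factor NRF2 (NFE2L2), which KEAP1 marks for degradation in unstressed cells, and HMOX1 is a classical target of the repressor BACH1.

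All 9 genes passed the filter, and their log2 fold changes ran from -0.18 for TXNRD1 to 4.17 for TRIM16L. The estimate for SRXN1 (0.31, SE 0.20) was the least precise. NQO1, HMOX1, OSGIN1, TRIM16 and TRIM16L met the call rule as higher in T24R2 (5 of 9, where 24.9% of all tested genes were called higher), 0 of 9 were called lower (26.5% of all tested genes) and 4 were not called. Either direction was called for 51.4% of all tested genes, so calls were common throughout the transcriptome. The 5 called genes were also those whose T24R2 libraries all lay above all T24 libraries, which 29.9% of tested genes did. TXNRD1 had all T24R2 libraries below all T24 libraries, which 31.3% of tested genes did, and the ranges of TXN, PRDX1 and SRXN1 overlapped. Without a minimum fold change, 6 of the 9 were higher and 1 lower, against 75.5% of all tested genes passing in either direction. These shares describe how the genes were chosen, and nothing is read from them. The median log2 fold change of the 9 genes was 0.71.

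**Figure D1:**
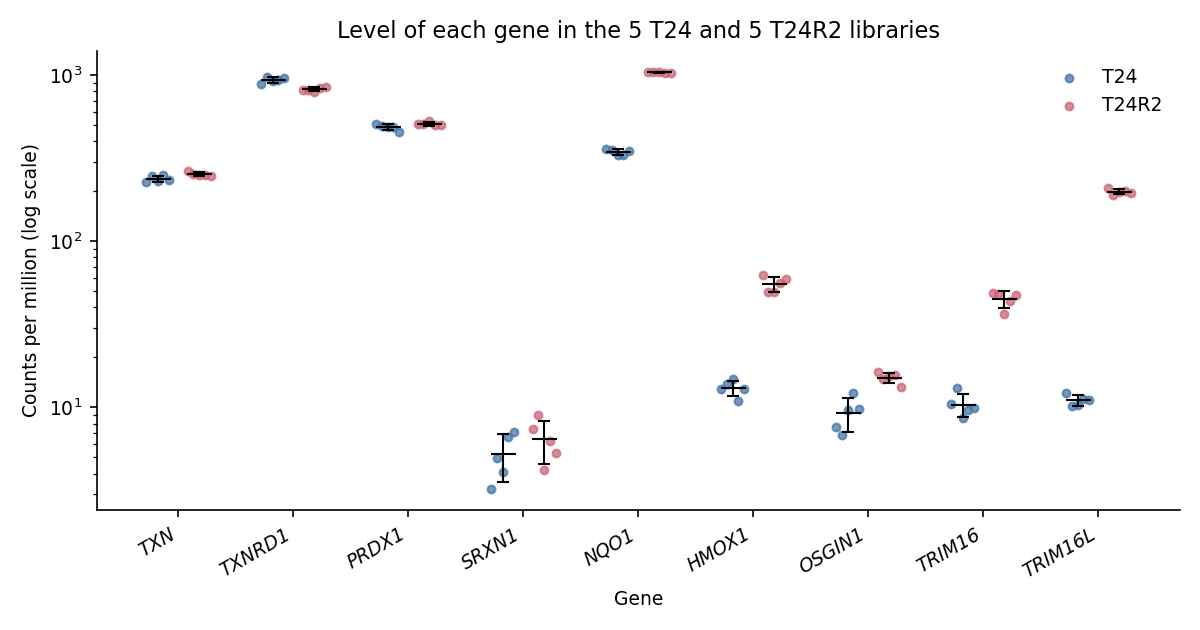
Level of each of the 9 genes in every library, in TMM-scaled CPM on a log axis, with blue points for the 5 T24 libraries, red points for the 5 T24R2 libraries and black bars for the mean ± SD. TRIM16L had a mean of 11.03 CPM in T24 and 199 in T24R2, whereas the points of TXN, PRDX1 and SRXN1 overlap between the lines.

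TXN (ENSG00000136810.13, hg38 chromosome 9, 110243810 to 110256507, minus strand) encodes cytosolic thioredoxin. Its level in T24 libraries 1 to 5 was 226, 248, 231, 249 and 235 CPM, and in T24R2 libraries 1 to 5 it was 266, 255, 251, 252 and 246 CPM. T24R2 library 1 was the highest of the 10, and the lowest T24R2 library (246) lay below the 2 highest T24 libraries. The T24 mean was 238 ± 10.3 CPM and the T24R2 mean 254 ± 7.49 CPM (± SD of 5 libraries here and for each gene that follows), with a log2 fold change, T24R2 minus T24, of 0.10 (SE 0.04).

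TXNRD1 (ENSG00000198431.17, chromosome 12, 104215779 to 104350307, plus strand) encodes the cytosolic thioredoxin reductase. In T24 its level was 881, 969.6, 929, 929.6 and 965 CPM, and in T24R2 it was 811, 819, 794, 839 and 852 CPM. Every T24R2 library was below every T24 library, and the lines were separated by the gap from 852 to 881 CPM. The means were 935 ± 35.7 and 823 ± 22.6 CPM, with a log2 fold change of -0.18 (SE 0.04). This direction rests on the scaling, since without TMM the log2 fold change of TXNRD1 was -0.02, and per transcript length its mean was 428 ± 18.1 TPM (counts divided by gene length and scaled to the same total in each library) in T24 and 439.7 ± 16.0 in T24R2, with overlapping ranges.

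The RefSeq promoter table (build GRCh38.p14, 250 bases before to 50 bases after each start) held 7 windows for 6 of the 9 genes: TXN, TXNRD1 with 2 start sites, SRXN1, NQO1, OSGIN1 and TRIM16. The antioxidant response element core, written TGACNNNGC, was searched on both strands. It was found in both TXNRD1 windows and in 13.3% of the 35116 promoters of the table. In the window of the upstream TXNRD1 start it lay at -99 to -91 bases from the start on the gene's own strand, with another match on the opposite strand that reached the start site. The stretch is printed because it holds the only match to this core among the 7 windows that reads in the direction of the gene, and the capitals mark the match in 60 bases at chr12:104215654-104215713, plus strand:
TXNRD1: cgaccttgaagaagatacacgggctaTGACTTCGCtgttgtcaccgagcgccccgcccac
A match is a description of the letters and not a bound site.

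PRDX1 (ENSG00000117450.15, chromosome 1, 45510914 to 45542732, minus strand) encodes a cytosolic peroxiredoxin. In T24 it was at 507, 495, 489, 486 and 456 CPM, and in T24R2 at 507, 509, 531, 498 and 504 CPM. T24 library 1 was as high as T24R2 library 1, and T24 library 5 was the lowest of all. The means were 487 ± 18.8 and 510 ± 12.7 CPM, with a log2 fold change of 0.07 (SE 0.04). Of its exon bases, 29.8% (501 of 1682) lie opposite exons of MMACHC, whose level was 225 ± 11.5 CPM in T24 and 232 ± 11.8 in T24R2.

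SRXN1 (ENSG00000271303.2, chromosome 20, 646615 to 653200, minus strand) was the lowest of the 9 genes in counts, with 31 to 66 counts per T24 library and 44 to 104 per T24R2 library. In T24 its level was 3.22, 4.94, 4.11, 6.67 and 7.13 CPM, and in T24R2 it was 7.43, 9.02, 4.22, 6.24 and 5.31 CPM. Both lines spread over more than their difference, and T24R2 library 3 lay below 3 of the T24 libraries. The means were 5.21 ± 1.66 and 6.44 ± 1.86 CPM, with a log2 fold change of 0.31 (SE 0.20).

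The low SRXN1 count has a boundary in the annotation. Of its 2528 exon bases, 2292 (90.7%) are also exon of a longer readthrough gene on the same strand, ENSG00000270299, to which 0 to 2 counts were assigned in any library. By default featureCounts leaves out a fragment that matches more than 1 gene, and the command in the file headers set no other rule, so the SRXN1 value would rest on fragments with a read in the 236 bases that are its own. These are 225 bases at chr20:652976-653200, at the start of the gene, and 11 bases at chr20:646615-646625, and 210 of the 236 are coding. The value of SRXN1 is therefore a count over a small part of the gene, and its level cannot be set beside that of other genes without this limit.

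NQO1 (ENSG00000181019.13, chromosome 16, 69706996 to 69726668, minus strand) encodes the cytosolic quinone reductase. Its level in T24 was 359, 356, 330.0, 332 and 352 CPM, and in T24R2 it was 1039, 1048, 1050.15, 1031 and 1037 CPM. The lowest T24R2 library was far above the highest T24 library, and the 5 T24R2 libraries differed among themselves by a coefficient of variation of only 0.777%. The means were 346 ± 13.7 and 1041 ± 8.09 CPM, with a ratio of 3.01 and a log2 fold change of 1.59 (SE 0.04). NQO1 had the highest level per length of the 9 genes in T24R2 (1256 ± 14.3 TPM) and the rank of 4 in T24 (357 ± 10.4 TPM).

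A non-coding gene on the opposite strand, ENSG00000261602, covers 575 of the 2971 exon bases of NQO1 (19.4%). Its level was 31.7 ± 2.54 CPM in T24 and 145 ± 8.58 in T24R2 (log2 fold change 2.20, SE 0.06, edgeR adjusted p = 1.5e-29). The library kit was not described as keeping strand, although the counting used a strand setting, so reads of NQO1 and of this gene cannot be told apart. With all counts of ENSG00000261602 taken off those of NQO1, the log2 fold change of NQO1 was 1.51. NQO1-DT, which starts 100 bases from the start of NQO1 and runs the other way, was at 32.2 to 40.9 CPM in T24R2 and 36.5 to 45.9 in T24 and was not called (log2 fold change -0.18, SE 0.08, edgeR adjusted p = 0.026).

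HMOX1 (ENSG00000100292.18, chromosome 22, 35380361 to 35394214, plus strand) encodes the inducible heme oxygenase. Its level in T24 was 13.0, 13.8, 14.9, 10.97 and 12.9 CPM, and in T24R2 it was 62.5, 49.4, 49.8, 56.1 and 59.5 CPM. The lowest T24R2 library lay above 3 times the highest T24 library. The means were 13.1 ± 1.43 and 55.5 ± 5.80 CPM, with a ratio of 4.24 and a log2 fold change of 2.08 (SE 0.09). None of its 2306 exon bases is shared with another gene on either strand.

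OSGIN1 (ENSG00000140961.14, chromosome 16, 83931311 to 83966332, plus strand) encodes a growth inhibitor that is induced by oxidative stress. Its level in T24 was 7.58, 6.84, 9.60, 12.3 and 9.83 CPM, and in T24R2 it was 16.2, 14.8, 15.4, 15.7 and 13.3 CPM. The lines came closest at T24 library 4 and T24R2 library 5, and T24 spread more widely than T24R2. The means were 9.22 ± 2.13 and 15.1 ± 1.13 CPM, with a ratio of 1.63 and a log2 fold change of 0.71 (SE 0.13), and OSGIN1 was the only called gene of the set that lost its call when a log2 fold change over 1 was asked. MLYCD, the gene before it on the same strand, shares 457 of its exon bases (8.22%) and was at 1.92 ± 0.439 CPM in T24 and 3.02 ± 0.841 in T24R2.

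The OSGIN1 promoter window was the only one of the 7 with an AP-1 site, written TGAGTCA or TGACTCA, and 4.95% of all promoters held one. The match lay at -97 to -91 bases from the start. It reads as the alternative spelling on the opposite strand. It is shown in capitals, as the only match to this motif in the 7 windows, in 60 bases at chr16:83953116-83953175, plus strand:
OSGIN1: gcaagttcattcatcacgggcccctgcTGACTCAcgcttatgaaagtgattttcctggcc
The E-box CACGTG (7.26% of all promoters) and the ATF4 element TGATGCAA (0.866%) were in none of the 7 windows, and the windows of TXN, SRXN1, NQO1 and TRIM16 held none of the 4 motifs within their 300 bases.

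TRIM16 and TRIM16L lie on the same chromosome and resemble each other closely. TRIM16 encodes a tripartite motif protein of the stress response without a classical RING domain. TRIM16L (TRIM16-like) is a shorter copy, annotated by RefSeq as a transcribed pseudogene. TRIM16 (ENSG00000221926.13) spans 15627960 to 15684311 of chromosome 17 on the minus strand, and TRIM16L (ENSG00000108448.23) spans 18697998 to 18736118 on the plus strand.

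Of the 5640 exon bases of TRIM16, 3760 aligned without gaps to exons of TRIM16L at 98.4% identity, with 60 differences. Of its 2008 coding bases in GENCODE release 44, 1408 aligned with 15 differences (98.9% identity), and the longest identical coding run was 220 bases. The start of that run is printed because a read that lies inside it would map to both genes. It lies at chr17:15629119-15629178, minus strand, in TRIM16 and at chr17:18734897-18734956, plus strand, in TRIM16L:
TRIM16: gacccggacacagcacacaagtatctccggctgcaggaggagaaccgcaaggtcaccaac
TRIM16L: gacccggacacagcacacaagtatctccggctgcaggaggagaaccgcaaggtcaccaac
Reads can be placed by exon bases outside the alignment, and inside it by the differing bases. The 60 aligned coding bases of TRIM16 with the most differences are printed to show such differing bases. They lie at chr17:15628804-15628863, minus strand, in TRIM16 and at chr17:18735212-18735271, plus strand, in TRIM16L, and the capitals mark the differing bases:
TRIM16: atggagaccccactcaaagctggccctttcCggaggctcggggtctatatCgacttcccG
TRIM16L: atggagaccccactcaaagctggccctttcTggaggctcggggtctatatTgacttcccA
Counted from 1 at the left end, with the base of TRIM16 first, the 3 differences are C31T, C51T and G60A.

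The level of TRIM16 in T24 was 10.5, 13.0, 8.68, 9.68 and 9.94 CPM, and in T24R2 it was 48.6, 48.0, 36.5, 43.7 and 47.6 CPM. T24R2 library 3 was the lowest of its line and still well above every T24 library. The means were 10.4 ± 1.63 and 44.9 ± 5.08 CPM, with a ratio of 4.33 and a log2 fold change of 2.11 (SE 0.10).

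The level of TRIM16L in T24 was 12.2, 10.2, 10.3, 11.3 and 11.1 CPM, and in T24R2 it was 208, 191, 198, 200.5 and 196 CPM. The lines did not come near each other, and the spread within each was small. The means were 11.03 ± 0.836 and 199 ± 6.39 CPM, with a ratio of 18.0 and a log2 fold change of 4.17 (SE 0.06), which was the largest of the 9 genes.

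The authors kept uniquely mapped reads only, so a fragment without a difference between the 2 genes would have been dropped for both. Exact copies elsewhere in the genome were found for 9.53% of the 150-base exon windows of TRIM16 and 10.8% of those of TRIM16L, and for 19.4% and 22.5% of the 100-base windows. In the other 7 genes, no 100-base window and no 150-base window had an exact copy. All of the copied TRIM16 windows of 100 bases lay in TRIM16L. When the counts of both genes were summed, an alternative chosen after the data had been seen, the log2 fold change was 3.51. TRIM16 also shares 23.5% of its exon bases on the same strand with the longer readthrough gene ENSG00000251537, which held 0 or 1 counts per T24 library and 5 to 12 per T24R2 library, and 6.33% with ENSG00000266261 on the opposite strand, at 1.64 ± 0.443 CPM in T24 and 4.57 ± 0.145 in T24R2 (log2 fold change 1.47, SE 0.23, edgeR adjusted p = 4.1e-07).

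**Figure D2:**
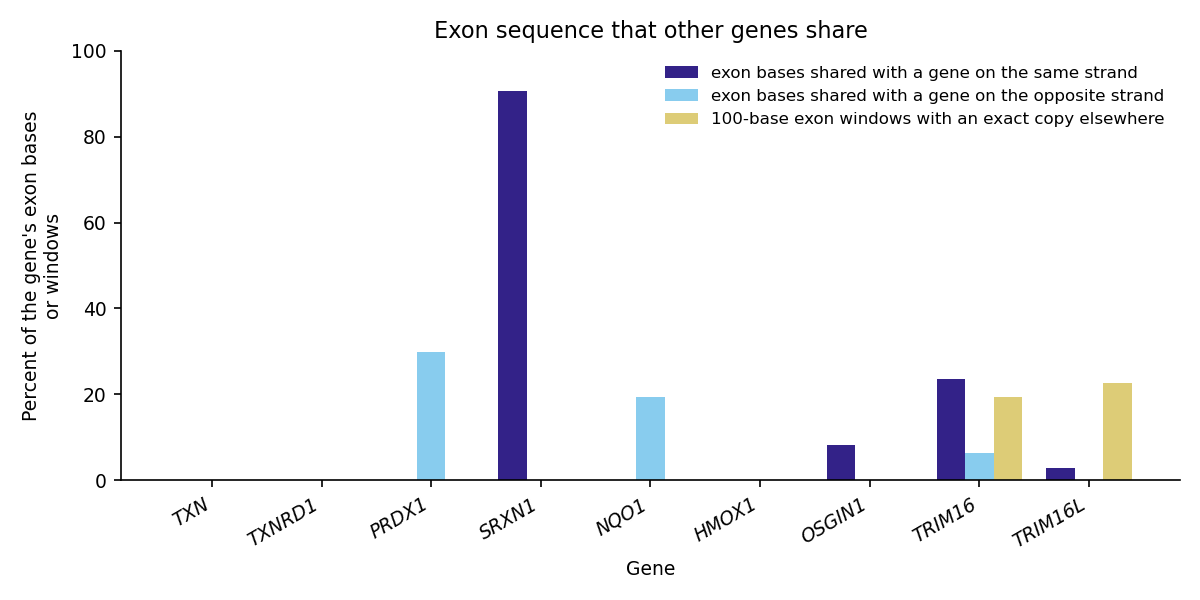
For each of the 9 genes, the percent of exon bases shared with a gene on the same strand (dark blue) or the opposite strand (light blue), and the percent of 100-base exon windows with an exact copy elsewhere in the genome (yellow). SRXN1 stands out with 90.7% shared on the same strand, and only TRIM16 and TRIM16L have copied windows.

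Levels of different genes were compared per length, as TPM over the length column of the tables. In T24 the order was PRDX1 (888 ± 28.0 TPM), TXN (723 ± 34.5), TXNRD1 (428 ± 18.1) and NQO1 (357 ± 10.4), followed far below by HMOX1 (17.4 ± 1.83), TRIM16L (7.82 ± 0.598), SRXN1 (6.35 ± 2.09), TRIM16 (5.63 ± 0.810) and OSGIN1 (5.11 ± 1.25). The first 5 did not overlap in range with the next in rank, but TRIM16L, SRXN1 and TRIM16 each overlapped in range with the next in rank. In T24R2 the order was NQO1 (1256 ± 14.3 TPM), PRDX1 (1086 ± 21.5), TXN (901 ± 22.9), TXNRD1 (439.7 ± 16.0), TRIM16L (165 ± 4.21), HMOX1 (86.2 ± 8.89), TRIM16 (28.5 ± 3.36), OSGIN1 (9.72 ± 0.671) and SRXN1 (9.14 ± 2.68). In T24R2 only the last pair, OSGIN1 and SRXN1, overlapped in range. TPM carries no TMM correction, and on that scale all T24R2 libraries of TXN (879 to 933) and PRDX1 (1068 to 1119) lay above all T24 libraries (677 to 770.1 and 841 to 912), so whether the lines overlap for TXN and PRDX1 depends on the scaling. With the exon bases shared on the same strand left out of the length, SRXN1 stood at 68.0 TPM in T24 and 97.9 in T24R2, and 3 genes in T24 and 4 in T24R2 changed place.

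**Figure D3:**
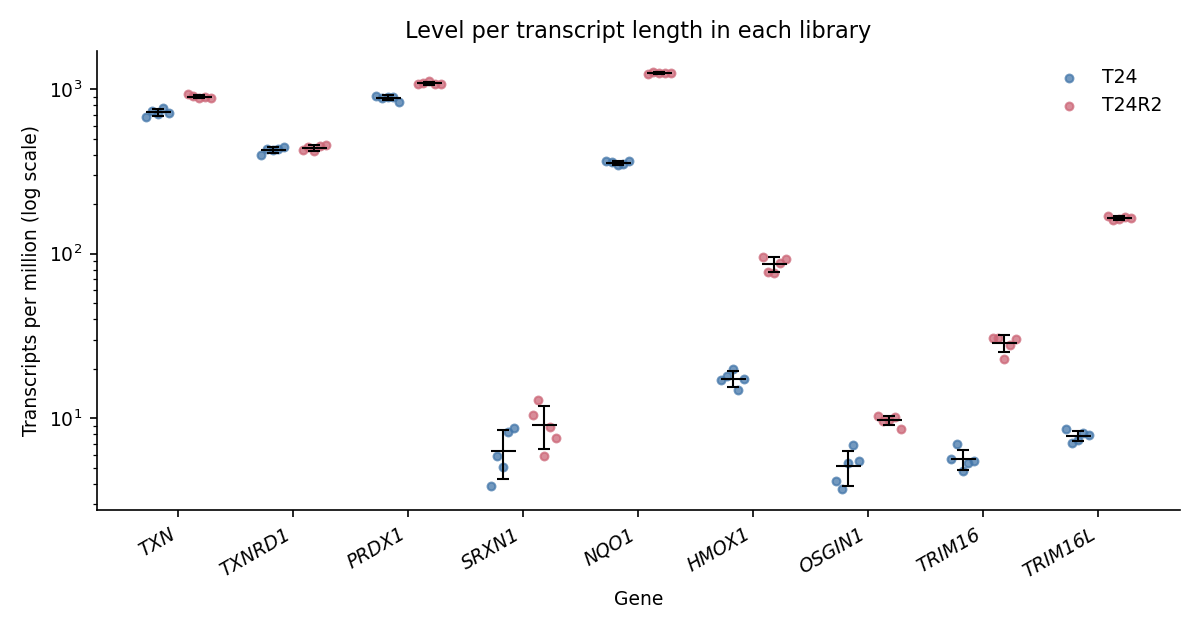
Level per length of each of the 9 genes in every library, in TPM on a log axis, with blue points for T24, red points for T24R2 and black bars for the mean ± SD. Over the full gene length NQO1 was the highest gene in T24R2 at 1256 TPM, and OSGIN1 and SRXN1 were the lowest at 9.72 and 9.14 TPM. The place of SRXN1 depends on the length: without exon bases shared on the same strand it stood at 97.9 TPM in T24R2.

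Summed over the 9 genes, the T24 level was 2054 ± 38.9 CPM and the T24R2 level 2949 ± 14.2 (± SD, n = 5), or 2438 ± 40.8 and 3982 ± 26.8 TPM. Ratios of levels per length within a library showed which partners shifted against each other. The TXNRD1 to TXN ratio ran from 0.561 to 0.619 in T24 and from 0.459 to 0.522 in T24R2, without overlap. The PRDX1 to TXN ratio was 1.23 ± 0.0770 in T24 and 1.21 ± 0.0467 in T24R2, with overlapping ranges. The TRIM16L to TRIM16 ratio over the full lengths was 1.41 ± 0.222 in T24 and 5.84 ± 0.758 in T24R2. This ratio depends on the length used, since part of the TRIM16 exons is shared with a gene on the same strand. With such shared bases left out of the lengths, TRIM16L and TRIM16 averaged 8.06 and 7.37 TPM in T24. In T24R2 they averaged 169.6 and 37.3 TPM on that length.

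The same families hold 11 other genes that were not on the list, and these moved in both directions, with 3 called higher, 3 lower and 5 not called, and a median log2 fold change of 0.06. Beside this and every list below stand the shares of all tested genes, 24.9% called higher and 26.5% lower. Among thioredoxins and reductases, the mitochondrial reductase TXNRD2 rose from 25.8 ± 1.68 to 65.6 ± 4.31 CPM (log2 fold change 1.35, SE 0.07, edgeR adjusted p = 2.8e-20). TXN2, the mitochondrial thioredoxin, was at 61.6 ± 3.80 and 64.1 ± 2.74 CPM (log2 fold change 0.06, edgeR adjusted p = 0.37), and TXNRD3 at 10.2 ± 2.03 and 10.2 ± 0.945 CPM. The reductase was thus called in the mitochondrial pair, while neither gene of the cytosolic pair met the call rule.

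The peroxiredoxins divided. PRDX6, a peroxiredoxin that uses glutathione in place of thioredoxin, rose from 126 ± 5.04 to 195 ± 7.35 CPM (log2 fold change 0.63, SE 0.05, edgeR adjusted p = 2.2e-15). PRDX3, the mitochondrial form, fell from 157 ± 9.33 to 93.9 ± 5.18 CPM (log2 fold change -0.74, SE 0.05, edgeR adjusted p = 4e-16). PRDX4, the form of the endoplasmic reticulum, fell from 86.2 ± 4.28 to 28.1 ± 2.19 CPM (log2 fold change -1.62, SE 0.06, edgeR adjusted p = 5.5e-24). PRDX2 and PRDX5 had log2 fold changes of 0.16 (SE 0.05) and 0.21 (SE 0.06), under the minimum for a call.

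The counterparts of the quinone and heme enzymes differed from each other. NQO2, a related quinone reductase that does not use NADPH efficiently, rose from 23.99 ± 3.09 to 39.3 ± 2.73 CPM (log2 fold change 0.71, SE 0.08, edgeR adjusted p = 7.9e-10). HMOX2, the constitutive heme oxygenase, fell from 47.9 ± 4.32 to 22.4 ± 0.566 CPM (log2 fold change -1.10, SE 0.08, edgeR adjusted p = 2.8e-16). The HMOX1 to HMOX2 ratio per length was 0.333 to 0.520 in T24 libraries and 3.17 to 3.99 in T24R2 libraries, so HMOX2 was the higher of the pair in every T24 library and HMOX1 in every T24R2 library. The NQO1 to NQO2 ratio was 11.9 ± 1.67 in T24 and 21.7 ± 1.55 in T24R2. OSGIN2 was at 26.6 ± 0.712 and 20.3 ± 0.661 CPM and had a log2 fold change of -0.39 (SE 0.08), which was not called.

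**Figure D4:**
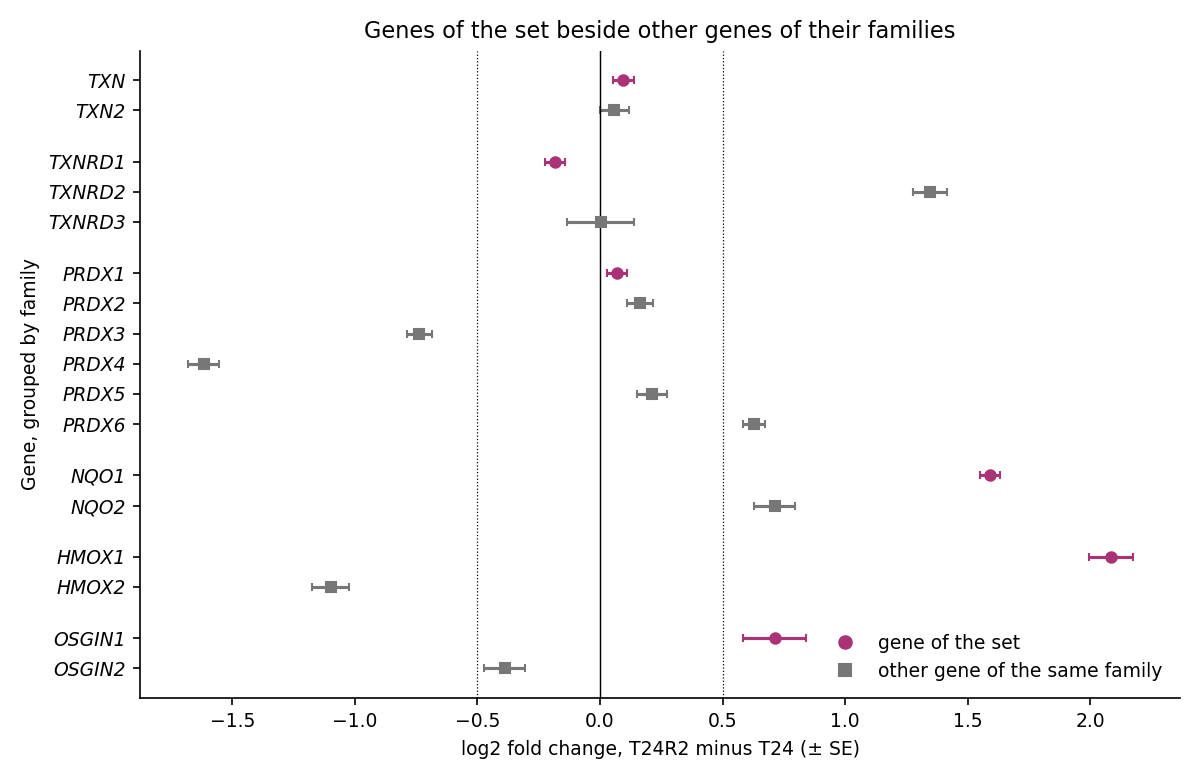
Log2 fold change, T24R2 minus T24, with its standard error for 6 of the 9 genes (purple circles) and the 11 other genes of their families (grey squares), with dotted lines at the call minimum of 0.5 in either direction. HMOX1 and HMOX2 lie on opposite sides at 2.08 and -1.10, and the peroxiredoxins run from PRDX4 at -1.62 to PRDX6 at 0.63.

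Around the thioredoxin pathway, 23 other genes were tested, most of them with a thioredoxin fold, and 5 were called higher, 7 lower and 11 not called (median log2 fold change -0.16). The 23 included TXNIP, ARRDC3 and ARRDC4, arrestin family genes without that fold, of which TXNIP (-0.87) and ARRDC4 (-0.99) were called lower. TXNDC15 rose from 45.4 ± 5.21 to 124 ± 3.96 CPM (log2 fold change 1.45, edgeR adjusted p = 2.5e-23) and TXNDC9 rose from 34.1 ± 2.16 to 71.0 ± 5.57 CPM (1.06, edgeR adjusted p = 1.8e-17). The membrane protein TMX4 fell from 60.7 ± 5.46 to 24.4 ± 3.07 CPM (-1.31, edgeR adjusted p = 4.3e-18), and TXNDC5, a disulfide isomerase of the endoplasmic reticulum, fell from 14.2 ± 3.05 to 6.92 ± 0.827 CPM (-1.04, edgeR adjusted p = 2e-08). These genes had no common direction.

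Of 11 genes listed around the clients and binding partners of thioredoxin, 2 were called higher, 4 lower and 5 not called (median -0.07). The 11 included the sulfate-activating enzymes PAPSS1 and PAPSS2, which are not themselves clients. The 4 that fell were PAPSS2, which makes activated sulfate, from 87.5 ± 5.21 to 3.80 ± 0.497 CPM (log2 fold change -4.52, edgeR adjusted p = 3.2e-34), the ribonucleotide reductase subunits RRM1 (-1.19, edgeR adjusted p = 6.5e-23) and RRM2 (-1.06, edgeR adjusted p = 1.4e-20), and the kinase MAP3K5, known as ASK1 (-1.05, edgeR adjusted p = 1.6e-15). RRM1 was at 312 ± 17.4 CPM in T24 and 137 ± 11.3 in T24R2, and RRM2 at 262 ± 22.4 and 125 ± 8.57. The TXN to TXNIP ratio per length, TXNIP being the protein that binds and inhibits thioredoxin, was 2.89 ± 0.492 in T24 and 5.56 ± 0.510 in T24R2. TXNIP itself fell from 299 ± 48.2 to 164 ± 10.5 CPM (log2 fold change -0.87, edgeR adjusted p = 5.2e-15), whereas TXN had a log2 fold change of 0.10.

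TXNRD1 is made with selenocysteine, and of 15 other genes for selenoproteins or selenocysteine synthesis 3 were called higher, 3 lower and 9 not called (median -0.01). SELENOW rose from 28.2 ± 2.60 to 50.5 ± 3.35 CPM (log2 fold change 0.84, edgeR adjusted p = 3.5e-13) and SEPHS1 rose from 47.9 ± 2.66 to 81.0 ± 3.19 CPM (0.76, edgeR adjusted p = 6.1e-15). SELENOT fell from 83.8 ± 5.33 to 37.7 ± 2.33 CPM (-1.15, edgeR adjusted p = 1.1e-19) and SELENOO fell from 65.3 ± 5.50 to 39.02 ± 1.56 CPM (-0.74, edgeR adjusted p = 3.5e-13). Of the 8 sestrin, superoxide dismutase and catalase genes, 7 were found by symbol, and 6 of these were tested. Of the 6, 4 were called higher and 1 lower (median 0.62). SESN2, a stress-induced sestrin, rose from 7.27 ± 1.69 to 23.9 ± 2.84 CPM (1.72, edgeR adjusted p = 1.7e-15), whereas catalase (CAT), which removes hydrogen peroxide in peroxisomes, fell from 115 ± 3.82 to 53.6 ± 2.44 CPM (-1.11, edgeR adjusted p = 2.3e-21). SESN1 rose with a log2 fold change of 1.17 (edgeR adjusted p = 3e-08) and SOD1 with 0.57 (edgeR adjusted p = 3.5e-14).

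Of 16 other quinone and carbonyl reductases, 3 were called higher, 5 lower and 8 not called (median 0.11), so the genes of this group had no common direction. TP53I3, a quinone oxidoreductase, rose from 9.42 ± 0.611 to 22.7 ± 3.56 CPM (log2 fold change 1.27, edgeR adjusted p = 5e-13) and CRYZL1 rose with 0.85 (edgeR adjusted p = 3.8e-13). The cytochrome b5 reductase CYB5R2 fell from 40.2 ± 2.78 to 2.28 ± 0.674 CPM (-4.12, edgeR adjusted p = 1.5e-27) and CYB5R3 fell from 245 ± 10.7 to 155 ± 4.31 CPM (-0.67, edgeR adjusted p = 1.2e-16).

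In heme breakdown and transport, 7 of 8 genes outside the list were tested, and 2 were called higher, 3 lower and 2 not called (median 0.44). Biliverdin reductase A (BLVRA), which acts on the product of heme oxygenase, fell from 49.6 ± 1.87 to 23.6 ± 3.21 CPM (log2 fold change -1.07, edgeR adjusted p = 2.8e-15), and the heme importer SLC48A1 fell from 22.98 ± 2.23 to 12.7 ± 0.639 CPM (-0.85, edgeR adjusted p = 5e-10). The heme exporter FLVCR1 rose from 8.13 ± 1.04 to 15.2 ± 1.55 CPM (0.90, edgeR adjusted p = 2.6e-08) and the heme-binding protein PGRMC1 rose from 61.9 ± 4.80 to 117 ± 7.38 CPM (0.92, edgeR adjusted p = 1.2e-17). The other biliverdin reductase, BLVRB, was at 34.7 ± 3.01 CPM in T24 and 48.3 ± 5.08 in T24R2, and its log2 fold change of 0.48 (edgeR adjusted p = 5.4e-07) was under the minimum for a call, so the 2 reductases lay on opposite sides of 0. BLVRB was named after its values had been seen.

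Heme synthesis, the opposite arm, had 11 of 12 genes tested, with 6 called higher, 1 lower and 4 not called (median 0.55). Ferrochelatase (FECH), which inserts iron in the last step, rose from 31.4 ± 2.98 to 62.1 ± 2.35 CPM (log2 fold change 0.98, edgeR adjusted p = 3.4e-16), the mitochondrial carrier SLC25A38 rose from 20.6 ± 1.66 to 42.2 ± 1.89 CPM (1.03, edgeR adjusted p = 4.3e-15) and ABCB10 rose from 19.0 ± 2.61 to 36.8 ± 1.26 CPM (0.95, edgeR adjusted p = 9.1e-13).

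Among 15 regulators of the NRF2 system, 6 were called higher, 4 lower and 5 not called (median -0.02). NFE2L2, which encodes NRF2 itself, rose from 98.9 ± 2.33 to 280.1 ± 23.3 CPM (log2 fold change 1.502, SE 0.05, edgeR adjusted p = 2.3e-26), with T24 libraries at 96.2 to 102 CPM and T24R2 libraries at 259 to 318. Its adaptor for degradation, KEAP1, rose from 56.2 ± 3.96 to 93.2 ± 7.45 CPM (0.73, SE 0.06, edgeR adjusted p = 7.4e-14). The repressor BACH1 fell from 202 ± 7.09 to 98.3 ± 6.06 CPM (-1.04, SE 0.05, edgeR adjusted p = 1.2e-21), and the small MAF protein MAFF fell from 84.8 ± 4.01 to 47.8 ± 4.16 CPM (-0.83, edgeR adjusted p = 1.9e-15).

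Of 31 other known NRF2 targets, 27 were tested, and 20 were called higher, 0 lower and 7 not called. Over all tested genes, 24.9% were called higher and 26.5% lower. The median log2 fold change of the 27 was 1.14, beside 0.01 over all tested genes. This list was chosen with earlier results of these data known, so its counts and median are a description. AKR1C3, an aldo-keto reductase, rose from 25.3 ± 3.28 to 289 ± 12.3 CPM (log2 fold change 3.51, edgeR adjusted p = 4.5e-36). The cystine transporter SLC7A11 rose from 57.8 ± 5.79 to 481 ± 31.4 CPM (3.06, edgeR adjusted p = 3.7e-35). PGD and ME1, which make NADPH, rose from 107 ± 5.82 to 734 ± 11.9 CPM (2.77, edgeR adjusted p = 3.6e-37) and from 12.7 ± 2.45 to 69.5 ± 7.76 CPM (2.46, edgeR adjusted p = 1.6e-24). TXN, TXNRD1, PRDX1 and SRXN1, which are also known targets, had log2 fold changes between -0.18 and 0.31. AKR1C3, SLC7A11, PGD and ME1 had changes above the 1.59 of NQO1, but they were named for the largest changes of their list at 5 CPM or more. The 7 targets of that list that were not called included GSR (0.06), GSTP1 (0.05) and ABCC1 (0.04), so small changes were not particular to TXN, TXNRD1, PRDX1 and SRXN1.

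Of 9 other BACH1 targets, 6 were called higher, 1 lower and 2 not called (median 0.97). The 1 called lower was the heme importer SLC48A1 (log2 fold change -0.85, edgeR adjusted p = 5e-10). All 6 called higher (FTL, FTH1, SLC7A11, ME1, GCLM and GCLC) also stand among the called NRF2 targets above, so this list adds no gene called higher to them. These 6 include the glutathione synthesis genes GCLM (log2 fold change 1.96, edgeR adjusted p = 1.2e-27) and GCLC (1.86, edgeR adjusted p = 3.6e-23). Heat shock genes, which share stress induction with HMOX1, had 13 of 15 tested, with 3 called higher, 1 lower and 9 not called (median 0.33). The 2 not tested were HSPA1A and HSPA1B, with at most 1 count in any library. Only uniquely mapped reads were kept, and whether this lowered their counts was not tested. DNAJB1 rose from 86.4 ± 1.73 to 159 ± 8.52 CPM (0.88, edgeR adjusted p = 4.1e-19), HSPH1 rose with 0.80 (edgeR adjusted p = 1.6e-16) and DNAJA1 with 0.56 (edgeR adjusted p = 1.1e-14), while the co-chaperone BAG3 fell from 98.3 ± 4.39 to 62.3 ± 2.73 CPM (-0.66, edgeR adjusted p = 4.4e-14).

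Of 41 other TRIM genes, 36 were tested, and 6 were called higher, 11 lower and 19 not called (median -0.04). TRIM2 rose from 3.68 ± 1.12 to 15.03 ± 1.88 CPM (log2 fold change 2.03, edgeR adjusted p = 1.5e-14) and TRIM4 rose from 29.5 ± 3.56 to 89.8 ± 6.36 CPM (1.60, edgeR adjusted p = 1.1e-22). TRIM22, an interferon-induced antiviral gene, fell from 35.4 ± 3.62 to 1.76 ± 0.283 CPM (-4.33, edgeR adjusted p = 9.6e-28) and TRIM47 fell from 21.1 ± 2.52 to 2.03 ± 0.486 CPM (-3.37, edgeR adjusted p = 5.7e-22).

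**Figure D5:**
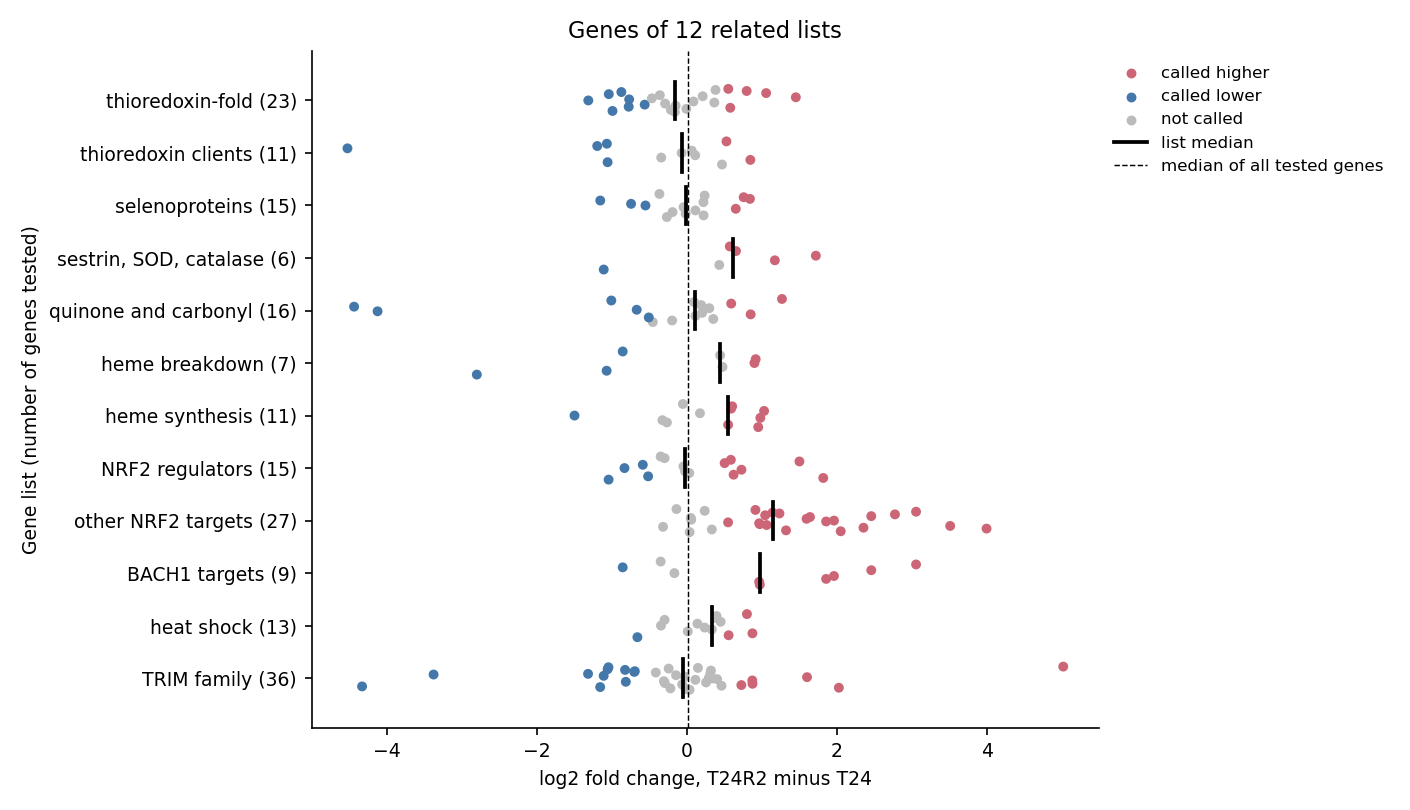
Log2 fold change, T24R2 minus T24, of every tested gene of 12 related lists, coloured red where called higher, blue where called lower and grey where not called, with a black bar for each list's median and a dashed line for the median of all tested genes at 0.01. The other NRF2 targets (median 1.14) and the BACH1 targets (0.97) lie furthest to the right, and the thioredoxin-fold list, which also holds TXNIP, ARRDC3 and ARRDC4, centres at -0.16.

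The neighbours of each gene within 1 Mb were looked at to place the genes in the genome. The 32 tested neighbours of TRIM16L had a median log2 fold change of -0.03, with 10 called higher and 3 lower, and the 25 of TRIM16 had 0.11, with 9 higher and 3 lower. These medians depended on the window and the scaling: in a window of 0.5 Mb they were 0.18 for TRIM16L and 0.57 for TRIM16, and without TMM they were 0.13 and 0.27. The genes next to TRIM16L on both sides were higher in T24R2. FOXO3B, whose start lies 15684 bases away, rose from 3.87 ± 0.991 to 11.1 ± 1.36 CPM (log2 fold change 1.52, SE 0.16, edgeR adjusted p = 9.8e-11), and FBXW10, 46028 bases away, had at most 3 counts in any T24 library and 3.92 to 5.57 CPM in T24R2 (edgeR adjusted p = 1.4e-14). Next to HMOX1, TOM1 rose from 21.1 ± 1.804 to 51.1 ± 4.01 CPM (1.28, SE 0.08, edgeR adjusted p = 6.2e-18), and MCM5 had a log2 fold change of 0.29, under the call minimum.

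The other regions looked different. All 4 tested neighbours of TXN were called lower (median -1.66, and -0.80 in a window of 2 Mb), among them LPAR1, which fell from 80.8 ± 5.15 to 10.7 ± 1.47 CPM (edgeR adjusted p = 2.1e-29). Of the 21 neighbours of SRXN1, 15 were called lower and 1 higher (median -0.66), and SLC52A3, whose start lies 122815 bases from that of SRXN1, had 14.8 to 17.6 CPM in T24 and 0 counts in every T24R2 library. Around NQO1, 2 of 34 neighbours were called higher and 9 lower (median -0.11), and around PRDX1 8 of 37 were higher and 8 lower (median -0.18). Neighbours of TXNRD1 (12 tested, 0 higher and 5 lower), HMOX1 (8 tested, 1 higher and 3 lower) and OSGIN1 (16 tested, 5 higher and 6 lower) completed the set. The neighbours counted as higher include genes that overlap exons of the gene itself. These were ENSG00000261602 for NQO1, ENSG00000266261 for TRIM16 and MLYCD for OSGIN1.

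Some genes outside the set had profiles across the 10 libraries much like its mean, which was 1.20 log2 units higher in T24R2. By Euclidean distance of centred log2 CPM over the 10 libraries, the nearest 5 were IGF2BP1 (distance 0.144), HNRNPA3 (0.171), KIRREL1 (0.191), PNPLA8 (0.197) and STC2 (0.200). Since 1911 tested genes lay within a distance of 1 log2 unit, such a profile was common.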

How the data were processed

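RNA was sequenced from 5 T24 and 5 T24R2 libraries. The authors deposited unnormalized fragment counts for every gene and library. They aligned paired reads to hg38 (STAR 2.7.0), removed duplicates and reads with several mapping positions (SAMtools 1.10) and counted over GENCODE release 39 (featureCounts 2.0.1, strand option 1). Groups and replicate numbers come from the sample titles. Of 61533 genes, 61369 had a symbol.

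Genes were filtered with filterByExpr, scaled by TMM and tested with edgeR 4.0.16 (glmQLFit, glmQLFTest, Benjamini-Hochberg over all tested genes), where the study used DESeq2, run here as DESeq2 1.42.0 in R 4.3.3. The same code was tested on simulated data. A gene was called at adjusted p under 0.05 and absolute log2 fold change over 0.5. The biological coefficient of variation was 6.61%. TPM used the length column. Promoter letters are from RefSeq, and exon copies were searched in the reference genome with exact matches.

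The 9 genes and the gene lists were chosen with earlier results of these data known. Named were all 9, their 11 family counterparts, NFE2L2, KEAP1 and BACH1, up to 4 called genes with the largest change at 5 CPM or more per list, overlapping genes, nearest tested neighbours and the 5 nearest profiles. A gene that this rule would name is not reported here. FBXW10, SLC52A3, TXNIP and the cell markers were named as neighbours, ratio partner and markers. ARRDC3, ARRDC4, PAPSS1, GSR, GSTP1, ABCC1, HSPA1A and HSPA1B were named to describe their lists, after their values had been seen.

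Alternatives were other scalings, DESeq2 with and without shrinkage, other count filters and fold minimums, a replicate block and leaving out each library in turn. MeRIP data, the organoids and protein assays of the study were not analysed here. The precision rests on 9257843 to 10840954 counts per library.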

Additional observations from a re-analysis of the deposited data

How the results depend on the processing

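No gene of the set changed its call under another scaling, under DESeq2 with or without shrinkage, without a count filter or without any single library. With a mean of at least 100 counts the other 8 kept theirs and SRXN1 was not tested. Over the 10 fits that left out a library, log2 fold changes ran from -0.21 to -0.17 for TXNRD1, 0.07 to 0.11 for TXN, 0.04 (without T24 replicate 5) to 0.08 for PRDX1, 0.16 (without T24R2 replicate 2, and 0.17 without T24 replicate 1) to 0.45 for SRXN1, 0.62 to 0.83 for OSGIN1, 1.57 to 1.60 for NQO1, 2.02 to 2.13 for HMOX1, 2.05 to 2.20 for TRIM16 and 4.14 to 4.21 for TRIM16L. Without a fold minimum TXN was called higher and TXNRD1 lower (1 gene of the set lower), and with a log2 fold change over 1 OSGIN1 was not called. Genes called higher were 4027 and lower 4282, and they were 2350 and 2641 with a mean of at least 100 counts, 6128 higher with no fold minimum, and 1918 and 2293 with a log2 fold change over 1. Of the genes on the related lists, 63 were called higher and 43 lower. With a log2 fold change over 1 these were 28 and 24, and with no fold minimum 68 were lower. These shifts follow from the thresholds and filters themselves. Without TMM 5206 genes were called higher and 3431 lower, and the log2 fold changes of TXN and PRDX1 were 0.26 and 0.23 in place of 0.10 and 0.07. Leaving shared exon bases out of the lengths moved 3 genes of the set in T24 and 4 in T24R2 to another place in the order of levels, whereas RPKM with TMM library sizes moved 0. Same-numbered replicates did not deviate together (correlations 0.0015 to 0.059, 2 of 5 best matched to their own number), and with a replicate block 3979 genes were called higher and 4261 lower, with the calls of the 9 genes as before. The medians of the neighbours moved with the window and the scaling (for NQO1 0.02 and for TRIM16L 0.18 at 0.5 Mb, both below 0 as reported). Depth limits SRXN1 most, at 31 to 104 counts per library.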
